A study of Mus musculus with 2 samples.

Results

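The 6 genes described here, Trim71, Lin28a, Lin28b, Drosha, Dgcr8 and Dicer1, act in the making and use of microRNAs or in the control of their let-7 family. They were taken by name from the 21536 protein-coding genes that could be placed with a strand, and all 6 were found. Histone H3 trimethylated at lysine 4 (H3K4me3), a chromatin mark of gene promoters, was mapped by chromatin immunoprecipitation and sequencing (ChIP-seq) in 1 mouse embryonic stem (ES) cell line, E14TG2a.4. This line is male and of strain 129/Ola, and the labels name no treatment or genetic change. The 2 samples are biological replicates of 1 group, so no contrast between conditions exists and each result is a description with the spread between the replicates. The data are the authors' 7 peak lists. On mm10 these are 1 list per replicate, a pooled list made from both, and a replicated list that draws on the other 3. All 62128 peaks of the replicated list had the edges of a pooled peak. The mm9 lists are 1 for each replicate and 1 of the series as a whole, named pooled here.

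MicroRNAs are cut from long primary transcripts by the nuclear Microprocessor, in which Drosha is the RNase III enzyme and Dgcr8 its RNA-binding partner. Dicer1 then cuts the exported hairpin to the mature duplex that is loaded into an Argonaute protein. Lin28a and Lin28b are RNA-binding proteins that block maturation of let-7, and Trim71 (also known as Lin41) is a TRIM-NHL protein that binds and represses mRNAs and is itself a classical let-7 target. Lin28a and Trim71 are well known as genes of pluripotent cells, whereas Drosha, Dgcr8 and Dicer1 are needed in most cell types.

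Upstream sequences of 5 of the genes are shown because their promoters differed widely in CpG content, a feature that no list of peaks contains. CpG dinucleotides are in capitals. Each is written 5′ to 3′ on the gene's strand and ends at the base before the gene model or start. The stretches of Trim71 (chr9:114564370-114564619, minus strand), Dgcr8 (chr16:18289252-18289418, minus), Dicer1 (chr12:104751969-104752202, minus) and Drosha (chr15:12824680-12824803, plus) are from RefSeq on GRCm38.p6 (mm10). That of Drosha is the whole space between its gene model and that of a gene read the other way. Lin28b is shown at 2 annotated starts in mm9 (NCBIM37), the 5′-most (chr10:45206202-45206451, minus) and one inside the gene (chr10:45190008-45190257, minus).
Trim71: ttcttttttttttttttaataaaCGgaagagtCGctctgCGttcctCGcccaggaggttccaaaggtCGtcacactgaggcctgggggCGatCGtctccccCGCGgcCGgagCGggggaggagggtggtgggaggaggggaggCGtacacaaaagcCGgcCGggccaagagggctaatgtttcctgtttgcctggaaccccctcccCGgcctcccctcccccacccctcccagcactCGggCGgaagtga
Dgcr8: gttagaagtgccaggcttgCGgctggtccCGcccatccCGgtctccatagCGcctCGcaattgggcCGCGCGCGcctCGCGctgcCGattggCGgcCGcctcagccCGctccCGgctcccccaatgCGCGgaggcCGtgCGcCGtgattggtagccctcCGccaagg
Dicer1: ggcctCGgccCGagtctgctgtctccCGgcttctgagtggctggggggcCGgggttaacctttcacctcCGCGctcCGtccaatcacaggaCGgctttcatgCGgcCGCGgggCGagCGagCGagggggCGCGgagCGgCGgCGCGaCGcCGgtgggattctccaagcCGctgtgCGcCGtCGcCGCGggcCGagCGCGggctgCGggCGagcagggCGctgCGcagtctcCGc
Drosha: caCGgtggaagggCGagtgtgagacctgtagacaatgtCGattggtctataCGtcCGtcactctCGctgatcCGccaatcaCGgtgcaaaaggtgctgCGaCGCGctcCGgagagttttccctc
Lin28b, 5′-most start: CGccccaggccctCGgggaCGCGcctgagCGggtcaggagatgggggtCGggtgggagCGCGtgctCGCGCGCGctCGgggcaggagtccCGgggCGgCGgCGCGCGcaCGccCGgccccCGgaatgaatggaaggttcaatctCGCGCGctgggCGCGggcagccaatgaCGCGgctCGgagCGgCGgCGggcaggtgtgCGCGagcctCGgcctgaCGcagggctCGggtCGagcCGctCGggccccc
Lin28b, start inside the gene: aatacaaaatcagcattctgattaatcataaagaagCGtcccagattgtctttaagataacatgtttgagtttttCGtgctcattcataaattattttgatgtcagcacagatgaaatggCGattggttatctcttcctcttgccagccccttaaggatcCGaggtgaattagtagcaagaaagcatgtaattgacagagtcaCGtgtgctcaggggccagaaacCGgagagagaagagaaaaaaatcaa

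CpG and motifs were counted over the full 250 bases upstream of each RefSeq start, and of the 5′-most Lin28b start in mm9. For Dgcr8, Dicer1 and Drosha these windows reach past the printed stretches, which hold 22, 36 and 12 CpG, into their own gene models and, at Drosha, into the neighbouring gene. The median over 21263 RefSeq starts was 10 CpG. Dicer1 had 39, Dgcr8 36 and Drosha 33, so the 3 genes of the processing enzymes were all CpG-rich. Trim71 had 17 CpG with a GC content of 62.8%. Lin28a had 7, below the median. Its RefSeq start lies 380 bp inside the gene model, so the whole window lies inside the gene and not upstream of its 5′ end. The starts of Lin28b stood at opposite ends of this range, with 41 CpG and 78.4% GC at the 5′-most start against 6 CpG and 39.2% GC at the inner one. The letters TATAAA, searched on both strands, were in none of these windows and in 11.6% of all starts. The same held for ATGCAAAT, the octamer letters, found in 1.58% of starts. CCAAT, present in 35.4% of starts, was found 4 times at Dgcr8, 3 times at Drosha, and 1 time each at Dicer1 and at both Lin28b starts. GGGCGG, in 42.6% of starts, was found 1 time each at Trim71, Dgcr8, Dicer1 and the 5′-most Lin28b start. No motif contains another, and a match of letters does not show a bound factor.

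A promoter counted as marked where at least 1 peak reached into the window from 1 kb upstream to 1 kb downstream of the gene's 5′ end. All 6 genes were marked in the replicated list, where 66.6% of the 21536 genes were. They were also marked in the pooled list (68% of genes) and in the lists of replicate 1 (66.9%) and replicate 2 (66.8%). In mm9, where every annotated protein-coding start of 20326 genes could be examined, all 6 were marked in the pooled list (72.4% of genes) and in those of replicate 1 (71.6%) and replicate 2 (71.1%). Since most genes carry the mark at their start, the call itself does not set these genes apart, and the width and strength of the marked region vary far more among them. A promoter without a peak would be one where no peak passed a list's threshold. The labelled cell type was checked on marker promoters. In the replicated list all 5 ES cell markers were marked, with domains of 6601 to 27074 bp, and 3 of 5 fibroblast markers were, with domains of 1038 to 1813 bp. Col3a1 and Acta2 had none. In the mm9 lists Nanog was not called marked. A gene without a matched protein-coding start also counts as not marked there, and an absent region and an unmatched gene were not told apart. How far fibroblast feeder cells contribute to the peaks was not tested.

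Domain width was measured by joining peaks less than 1 kb apart and taking the widest domain at the promoter. In the replicated list the median over 14343 marked genes was 2427 bp. The order of the 6 genes was Trim71 (40886 bp), Lin28a (5036 bp), Dgcr8 (4374 bp), Drosha (4138 bp), Dicer1 (2524 bp) and Lin28b (2089 bp). Domains of 5 kb or more were found at 13.5% of marked genes and here at Trim71 and Lin28a. Domains of 10 kb or more were found at 2.71% and here at Trim71 alone. In the replicate lists the mean widths were 22222.5 ± 112 bp for Trim71, 4927 ± 143 bp for Lin28a, 4570.5 ± 326 bp for Dgcr8, 4397.5 ± 513 bp for Drosha, 2431.5 ± 75.7 bp for Dicer1 and 2053 ± 59.4 bp for Lin28b (SD, n = 2 each). Lin28a, Dgcr8 and Drosha came in this order in both replicates, but in replicate 1, with 4826, 4801 and 4760 bp, they differed by less than their own spread between replicates. The step from Trim71 to Lin28a and the step from Drosha to Dicer1 were far larger than the spread between replicates.

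**Figure D1:**
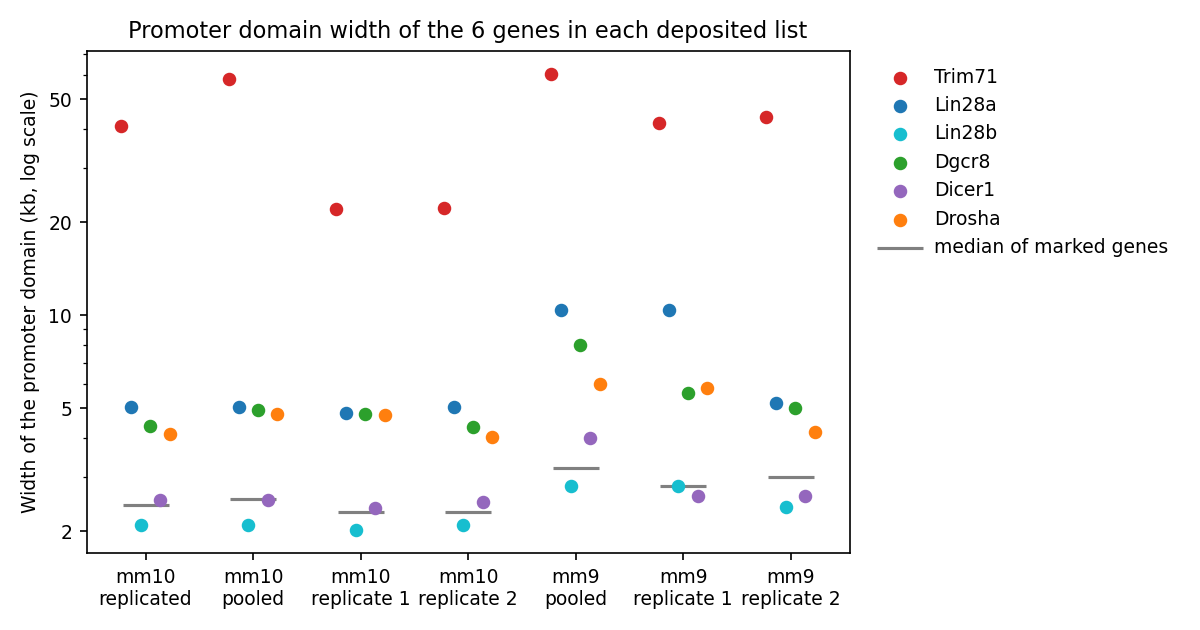
Width of the promoter domain (y axis, kb, log scale) of each gene (coloured points) in each of the 7 deposited lists (x axis), with the median over all marked genes of that list as a grey bar. Trim71 lies between 22.1 and 60.6 kb, above the other 5 genes in every list. Lin28b in mm9 is shown at its inner start, where the wider domain lies.

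Trim71 (chr9:114511268-114564369, minus strand, 53.1 kb) carried H3K4me3 along most of its length. Its strongest peak ran from -0.995 kb, upstream of the 5′ end, to 19.0 kb inside the gene and had a signal value of 52.5. The signal value is the authors' own measure of enrichment for each peak. Its scale is not stated in the labels or headers, so it was compared within a list. In replicate 1 the same stretch was 1 peak from -0.811 to 18.9 kb with a signal of 45.5. In replicate 2 it was called as 3 peaks, the first from -0.962 to 10.9 kb with a signal of 48.4. Both replicates thus had continuous or nearly continuous marking over the first 19.0 kb, and differed in where the peak was divided. Without any joining, the 19997 bp peak was the widest at any of the 14343 marked promoters of the replicated list.

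Further peaks followed to the 3′ end of Trim71. The replicated list had 13 in the gene body, of which 12 overlapped a peak in each replicate. The strongest of them lay 34.9 to 39.9 kb from the 5′ end, with a signal of 16.6 in the replicated list, 19.5 in replicate 1 and 16.3 in replicate 2. The next lay at 43.9 to 49.2 kb, with signals of 9.79, 10.8 and 6.003 in the same lists. The other body peaks had signals of 2.26 to 9.20 in the replicated list. Signal was thus highest at the 5′ end and fell to a lower level with a second, smaller rise toward the 3′ end, in both replicates. An upstream peak at -4.68 to -4.17 kb had a signal of 3.74.

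**Figure D2:**
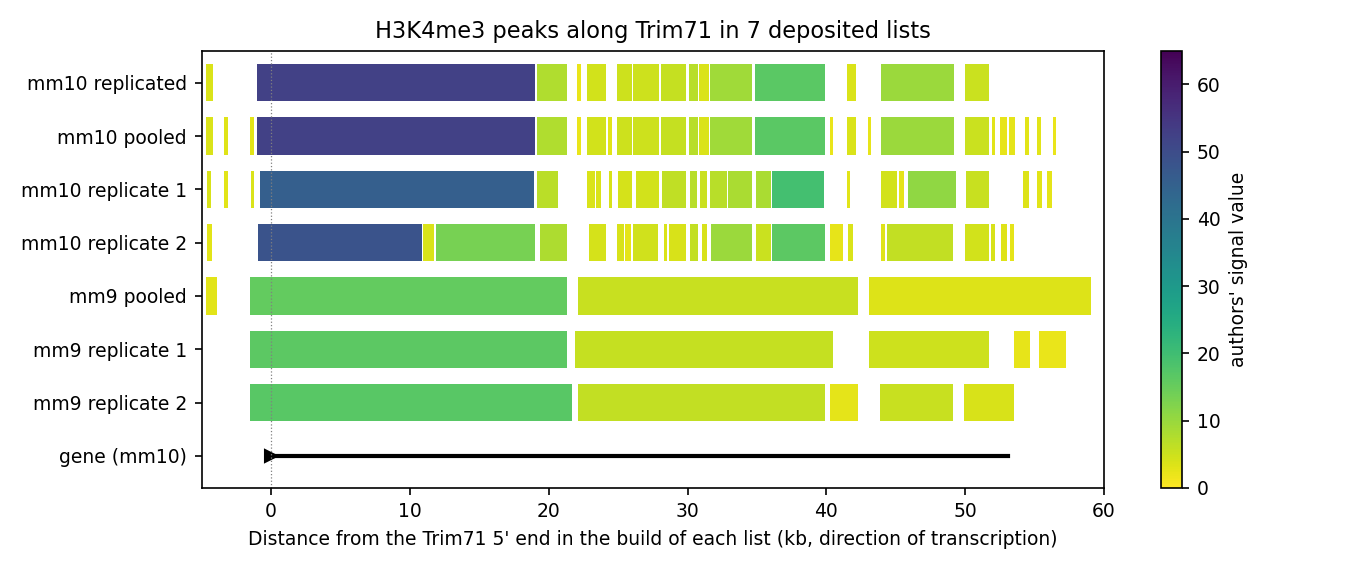
Peaks along Trim71 in each of the 7 lists (rows), placed by distance from the 5′ end in the list's own build (x axis, kb) and coloured by the authors' signal value, with the gene as a black line. The first 19.0 kb hold the strongest peak of each mm10 list, and weaker peaks continue to the 3′ end in every list.

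The domain width of Trim71 differed widely between the lists. It was 22143 bp in replicate 1, 22302 bp in replicate 2, 40886 bp in the replicated list and 58073 bp in the pooled list. The replicates were close to each other, at a ratio of 1.01, and both were well under the pooled and replicated lists. From the replicate lists to the replicated list the step arose at 1 place. A peak of 320 bp at 22.0 to 22.3 kb, with a signal of 2.26 and a −log10 q of 2.41, bridged the first part of the domain to the rest. It was in the pooled and replicated lists and in neither replicate list. At that place the space between peaks was 2052 bp in replicate 1 and 1559 bp in replicate 2, against 705 bp before the bridging peak in the replicated list. The pooled list went further, with weak peaks of its own inside the spaces of 1577 and 1804 bp that the replicated list left after 39.9 and 42.1 kb, and others past the 3′ end. Among all 62128 replicated peaks, 90.7% overlapped peaks in both replicates and 103 (0.166%) overlapped none in either.

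Without that peak the Trim71 domain of the replicated list was 22314 bp, both when peaks were required to have a partner in each replicate, an alternative chosen after seeing the data, and when a q-value under 1e-05 was required. Its place among marked promoters then went from 1 of 14343 to 18 of 14264 and 19 of 14261. In the replicates' own lists it was 18 of 14418 and 14 of 14388. The joining distance moved the width in the same way. At 750 bp the replicated list gave 25.1 kb and at 2 kb 52.7 kb, while both replicate lists stayed at 22.1 and 22.3 kb from 500 bp to 1.5 kb. At 2.5 kb replicate 1 reached 60.9 kb and replicate 2 54.5 kb.

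**Figure D3:**
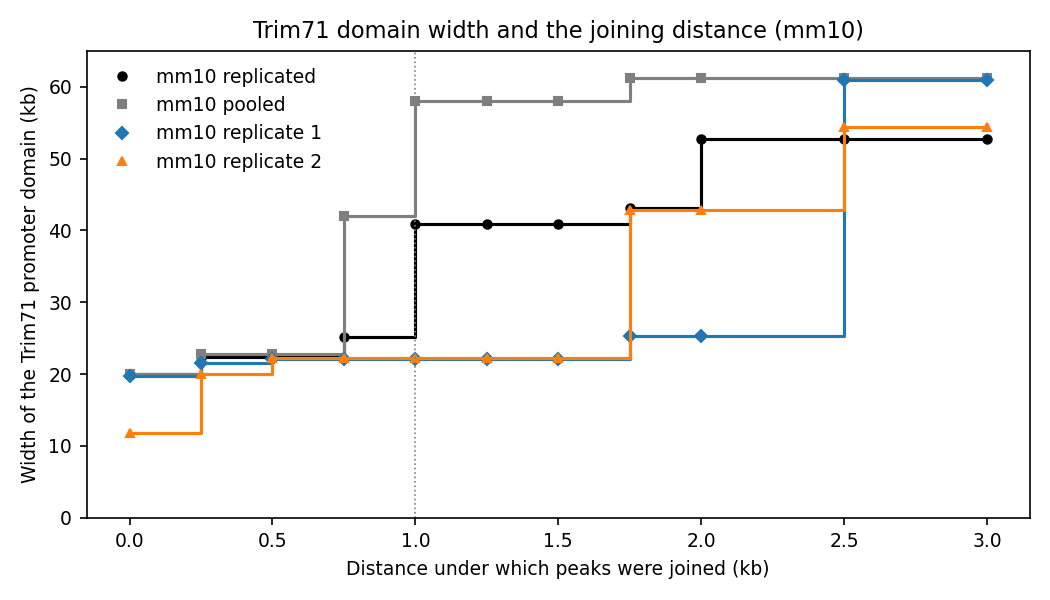
Width of the Trim71 promoter domain (y axis, kb) against the distance under which neighbouring peaks were joined (x axis, kb) in the 4 mm10 lists. All lists gave 11.8 to 20.0 kb without joining and 52.7 to 61.3 kb at 3 kb, and at 1 kb (dotted line) the replicate lists were at 22.1 and 22.3 kb while the replicated and pooled lists were at 40.9 and 58.1 kb.

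A measure with no joining step was less sensitive to the list. Of the Trim71 gene body, taken as the bases beyond 1 kb from the 5′ end, 83.9% lay under peaks in the replicated list, 86.8% in the pooled list, 78.2% in replicate 1 and 81.9% in replicate 2. The replicate mean was 80.1 ± 2.66% (SD, n = 2). Over 9633 genes with a body of at least 20 kb the median was 2.00% in the replicated list, and 0.498% of them (48 genes) had over 50% of the body covered. So high a coverage was reached by 0.737% of them in the pooled list, 0.363% in replicate 1 and 0.322% in replicate 2. Of the 6 genes described here, 5 have a body that long, and Trim71 was the one past 50%. Trim71 ranked 6 of 9633 in the replicated, pooled and replicate 1 lists and 3 in replicate 2. The genes ahead of it in the replicated list were Mllt6, Slc2a1, Smad7, Rarg and Kdm6b, all with bodies of 20.9 to 27.6 kb, against 52.1 kb for Trim71.

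The mm9 lists, with region edges on a grid of 200 bp, gave Trim71 widths of 60600 bp pooled, 42000 bp in replicate 1 and 43800 bp in replicate 2. These were ranks 1, 3 and 2. Coverage of the body was 96.9%, 91.2% and 93.9%. In the pooled list 3 regions made up the domain, with signals of 15.7 from -1.51 to 21.3 kb, 5.49 from 22.1 to 42.3 kb and 3.54 from 43.1 to 59.1 kb. In each mm9 list the signal was thus highest at the 5′ end and lower further along. The decrease was not steady in mm9 replicate 2, with 2.54 from 40.3 to 42.3 kb and 5.38 from 43.9 to 49.1 kb. The pooled mm9 list also left a space from 21.3 to 22.1 kb, replicate 1 from 21.3 to 21.9 kb and replicate 2 from 21.7 to 22.1 kb. Each was narrower than the joining distance. All 4 exons of Trim71 were touched in the mm9 pooled list, and introns made up 89.9% of the covered bases, close to their 90.2% of the gene. On mm10 no other protein-coding gene starts within the domain, and in mm9 the 3 pooled regions held no annotated start but that of Trim71. By mm10 positions the nearest 5′ ends were those of Ccr4, 58.9 kb away, and Cnot10, 75.9 kb away. Ccr4 is a chemokine receptor gene without a promoter peak in the replicated list, and Cnot10 a gene of the CCR4-NOT deadenylase complex.

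Lin28a (chr4:134003330-134019196, minus strand, 15.9 kb) had a promoter domain of 5036 bp in the replicated and pooled lists, 4826 bp in replicate 1 and 5028 bp in replicate 2. Its highest signal was 59.4 in the replicated list, 52.1 in replicate 1 and 51.6 in replicate 2. The replicates shared 95.7% of the domain's bases, above the median of 87.7% over 14215 genes marked in both. Downstream of the promoter domain lay a peak from 5.47 to 9.30 kb with a signal of 14.7, and a weaker one from 11.0 to 11.4 kb with 3.75. Both were present in each replicate. Together with the promoter domain they covered 48.9% of the gene body in the replicated list, 43.9% in replicate 1 and 49.1% in replicate 2. Lin28a was therefore marked over a large part of its length, though its body is shorter than 20 kb and it was not ranked with Trim71.

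In mm9 the Lin28a domain was 10400 bp in the pooled and replicate 1 lists and 5200 bp in replicate 2. The larger values arose where the region from 4.36 to 8.96 kb was less than 1 kb from the promoter region and was joined to it. With peaks joined under 3 kb on mm10 the domain became 12509 bp. A strong peak at 17.7 to 19.2 kb, past the 3′ end of the gene, had a signal of 59.1. It lies at the 5′ end of Dhdds, a gene of dolichol synthesis that starts 18.2 kb from that of Lin28a, and was not counted to Lin28a.

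Lin28b (chr10:45376617-45486314, minus strand, 109.7 kb) had the narrowest domain and the lowest signal of the 6 genes in the mm10 lists. The width was 2089 bp in the replicated and pooled lists, 2011 bp in replicate 1 and 2095 bp in replicate 2. The signal was 27.0, 27.0, 26.4 and 24.1 in the same lists, below the median of marked genes in each (43.0, 42.3, 38.4 and 36.5). Inside the gene were peaks at 12.2 to 13.4 kb (signal 12.8), 15.7 to 17.8 kb (9.32) and 39.5 to 40.3 kb (5.32), each present in both replicates. The second of them lies over the start that RefSeq annotates, 16.1 kb from the gene's 5′ end, whose upstream sequence is the CpG-poor one printed for the inner start. The peak at the CpG-rich 5′-most start was thus stronger than that at the inner start in the replicated list and in both replicates, where the inner peak had 9.46 and 10.6.

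The mm9 lists showed the same order of the Lin28b starts. The region at the 5′-most start had signals of 40.7 pooled, 43.2 in replicate 1 and 70.1 in replicate 2, and the region at the inner start 5.96, 6.07 and 6.41. The widths went the other way, with 2200, 2200 and 2000 bp at the 5′-most start and 2800, 2800 and 2400 bp at the inner one. Of the 6 genes Lin28b had the highest signal in the 3 mm9 lists and the lowest in the 4 mm10 lists, and what sets this reversal was not tested. Peaks covered 3.98% of the Lin28b body in the replicated list and 3.68 ± 0.310% in the replicate lists (SD, n = 2).

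Drosha (chr15:12824804-12935291, plus strand, 110.5 kb) had a domain of 4138 bp in the replicated list, 4798 bp in the pooled list, 4760 bp in replicate 1 and 4035 bp in replicate 2. The signal was 60.2 in the replicated list, 54.1 in replicate 1 and 54.9 in replicate 2. The domain also covers the 5′ end of 6030458C11Rik, which starts 125 bp away on the other strand, so the marked region cannot be assigned to one gene or the other. The replicates shared 84.8% of the joined domain's bases, the lowest such share among the 6 genes. Without the joined spaces, 88.8% of the bases under peaks were shared, and the lowest share was 72.3% at Dgcr8. On the side of that neighbour, replicate 1 reached to -2.91 kb and replicate 2 to -2.31 kb.

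Drosha had 6 peaks in its gene body, all with a partner in both replicates. The strongest ran from 7.91 to 10.5 kb with a signal of 23.3 in the replicated list, 22.8 in replicate 1 and 19.4 in replicate 2. Another at 61.4 to 62.9 kb had 18.4, 13.1 and 15.03. The remaining 4 had signals of 2.88 to 6.04. In mm9 the first of these regions, with signals of 11.6 pooled and 12.1 and 15.5 in the replicates, holds an annotated transcript start 9.01 kb from the 5′ end. That start is also the first base of an exon of longer transcripts, so a start and an exon edge cannot be told apart there. The annotated mm9 start nearest to the peak at 61.4 kb lies 53.9 kb from the 5′ end.

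Dgcr8 (chr16:18253948-18289251, minus strand, 35.3 kb) had a domain of 4374 bp in the replicated list, 4934 bp pooled, 4801 bp in replicate 1 and 4340 bp in replicate 2. Its signal differed most between the replicates, with 39.3 in replicate 1 and 56.0 in replicate 2 (47.6 ± 11.8, SD, n = 2), against 64.4 in the replicated list. Its signal rank was 6963 of 14418 in replicate 1 and 1924 of 14388 in replicate 2. In replicate 1 the promoter was called as 2 peaks of 1857 and 520 bp and in replicate 2 as 1 of 3609 bp. Of the joined domain's bases 90.0% were shared, and 72.3% of the bases under peaks without the joined spaces. The 2 small peaks in the gene body, at 2.22 to 2.86 kb and 3.29 to 3.68 kb, had signals of 3.30 and 3.60 and belong to the joined domain. In mm9 the domain was 8000 bp pooled, 5600 bp in replicate 1 and 5000 bp in replicate 2. A peak with a signal of 65.4 past the 3′ end, 37.6 to 44.1 kb from the Dgcr8 start, covers the 5′ ends of Trmt2a and Ranbp1. Mir1306, a microRNA hairpin inside Dgcr8, was 1258 bp from the nearest replicated peak. The distance was 698 bp in the pooled list, 823 bp in replicate 1 and 670 bp in replicate 2. In mm9 its start lay inside the pooled region of 8000 bp and outside the regions of either replicate.

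Dicer1 (chr12:104687740-104751968, minus strand, 64.2 kb) was marked almost at its start alone. The domain was 2524 bp in the replicated and pooled lists, 2378 bp in replicate 1 and 2485 bp in replicate 2, with signals of 36.4, 36.4, 31.8 and 33.2. The replicates shared 95.7% of its bases. The replicated list had 1 peak in its body, of 280 bp at 60.8 kb with a signal of 4.07, and 0.582% of the body was covered. The widths in mm9 were 4000, 2600 and 2600 bp. Dicer1 had 39 upstream CpG and a domain close to the median width of marked genes. Trim71 had 17 CpG and the widest domain of the replicated list, ranked 18 in replicate 1 and 14 in replicate 2. Whether CpG content and width are related was not tested.

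**Figure D4:**
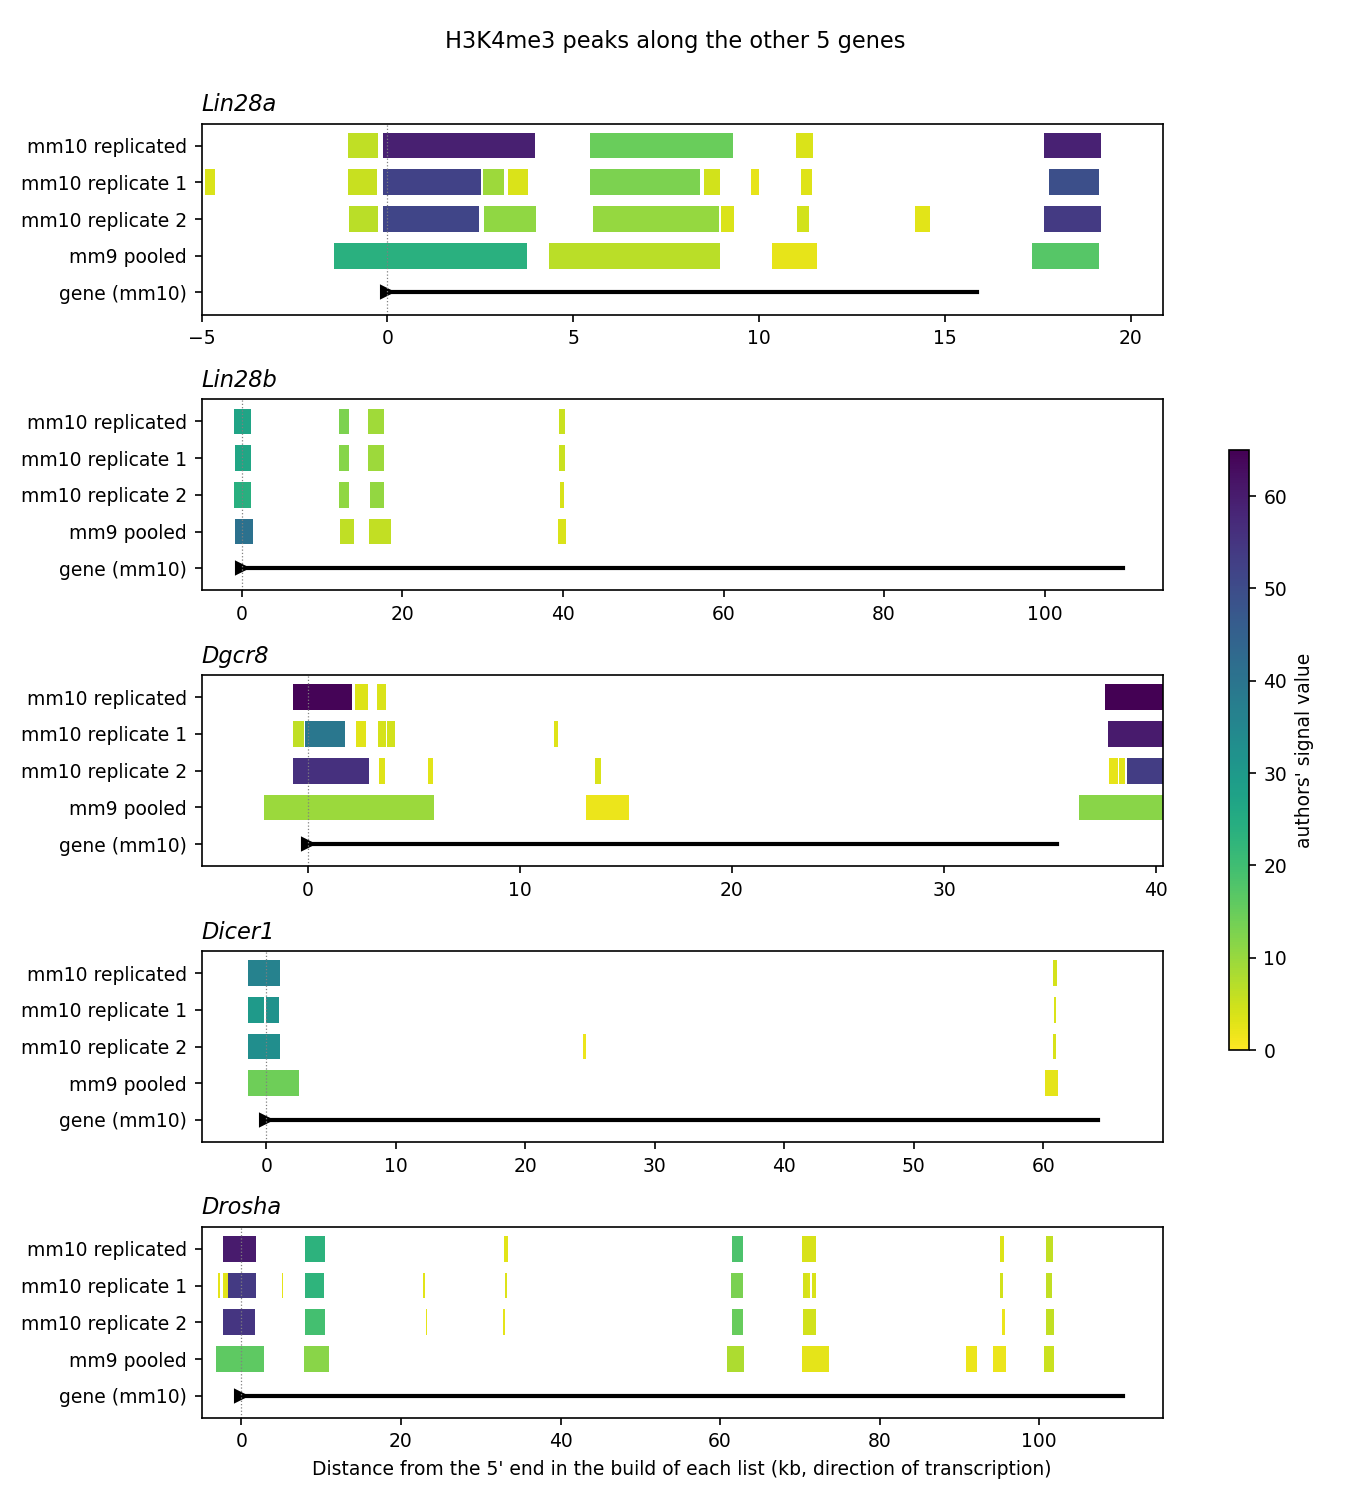
Peaks along Lin28a, Lin28b, Dgcr8, Dicer1 and Drosha in 4 lists (rows of each panel), placed by distance from the 5′ end (x axis, kb) and coloured by the authors' signal value, with the gene as a black line. Dicer1 has 1 weak body peak in the replicated list at 60.8 kb, Drosha has 6 body peaks, and the strong peaks past the 3′ ends of Lin28a and Dgcr8 lie at other genes' starts.

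In all, the replicated list held 27 gene-body peaks in the 6 genes, and 26 of them had a partner in both replicates. Of all 62128 replicated peaks 90.7% had one in both. For the Dgcr8 peak at 2.22 to 2.86 kb the partner in replicate 2 was the promoter peak. Bases under a peak were found in the body of all 6, as in 74.3% of the 19029 genes with a body of 1 kb or more. The base composition of such regions was read in mm9 for the pooled list. At the 5′ end of Lin28b the region had 9.95 CpG per 100 bp, at Dicer1 4.73, Trim71 2.73, Drosha 2.65, Lin28a 2.62 and Dgcr8 2.16. Of the 15 regions inside the genes, 14 had more CpG per 100 bp than the bases of their gene outside any region. The regions at the 5′ ends are left out of those bases, and the same count was not made for other genes. The exception was in Dgcr8, with 0.3 against 0.596. For Trim71 the inner regions had 1.55 and 1.94 against 1.06 in the 1600 bases outside regions. The Drosha region at 7.83 to 11.0 kb had 3.22, more than the 2.65 at its 5′ end. These values describe sequence and mark side by side, and no relation between them was tested.

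The replicates gave much the same widths for the 6 genes. The ratio of the larger to the smaller replicate width was 1.01 for Trim71, 1.04 for Lin28a, Lin28b and Dicer1, 1.11 for Dgcr8 and 1.18 for Drosha, with a median of 1.10 over 14215 genes. A ratio over 1.5 was found at 9.94% of genes and at none of these 6. This depended on the joining distance of 1 kb. Without joining the ratio was 1.67 for Trim71, 1.94 for Dgcr8 and 2.02 for Dicer1, whose promoter peaks were divided in 1 replicate, and with joining under 2 kb it was 1.69 for Trim71. By Euclidean distance over 4 standardised log2 values, the width and the signal in each replicate, the promoters most like that of Trim71 among 14215 genes were Klf3, a Krüppel-like transcription factor, and Mtf2, an accessory subunit of Polycomb repressive complex 2. Klf3 had widths of 25022 and 21839 bp and Mtf2 20785 and 20895 bp in the replicates. Lin28a was most like Hps5 and Gtf2h1, which share a domain, and Lin28b like Mtss2 and Ephb1. Dgcr8 was most like Fam162a and Ccdc58, which have the same values, Dicer1 like Ttpa and Camkv, and Drosha like Kmt5c after the neighbour with which it shares its domain.

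**Figure D5:**
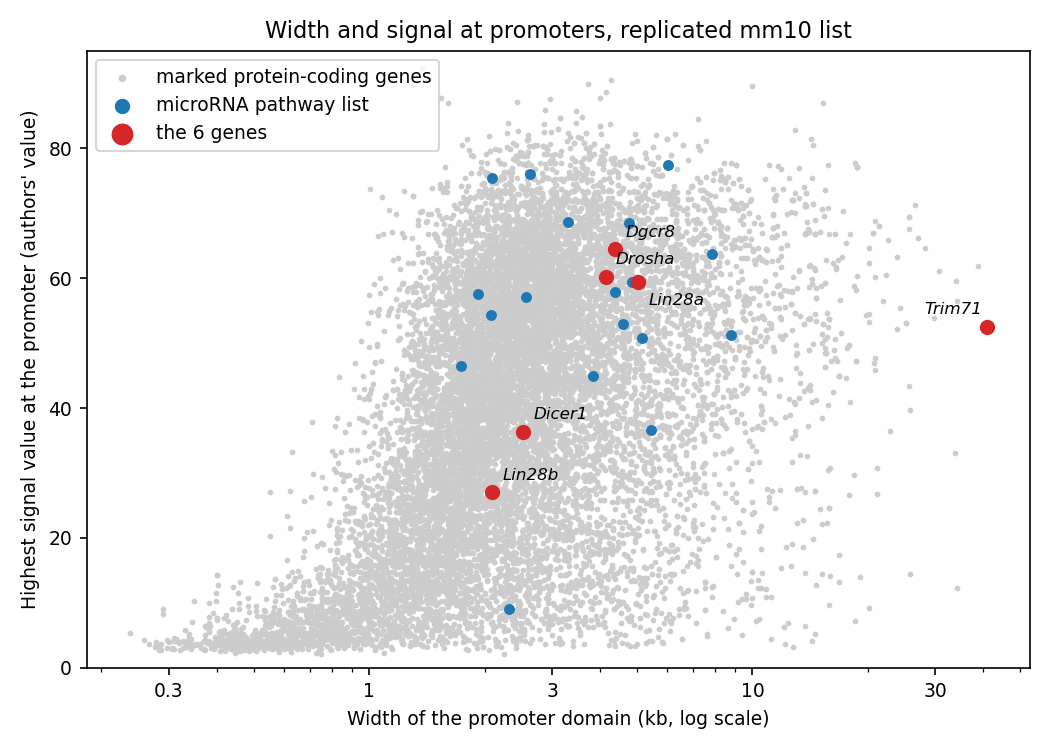
Promoter domain width (x axis, kb, log scale) and highest signal value (y axis, the authors' value) of all 14343 marked genes in the replicated list (grey), with the microRNA pathway list in blue and the 6 genes in red. Trim71 lies at the far right at 40.9 kb with a signal of 52.5, and Lin28b and Dicer1 lie below the median signal of 43.0.

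Other genes of the pathway were described from a list of 20 that act beside the 6 described here. In the replicated list 18 of 20 were marked, where 66.6% of all genes were, with a median width of 4103.5 bp and a median signal of 57.3, against 2427 bp and 43.0 over all marked genes. The 6 genes had medians of 4256 bp and 55.9. The widest on the list were Hnrnpa1, an RNA-binding protein with roles in microRNA processing (8770 bp), Srrt, which links the cap-binding complex to primary microRNA processing (7836 bp), and Ago1, an Argonaute (6021 bp). Srrt was 4840 bp in replicate 1 and 8620 bp in replicate 2. The order of the widest changed with the list, since Ago2, an Argonaute gene named after its values were seen, had 5140 bp in the replicated list and 5159 bp in replicate 2 but 8900 bp in replicate 1 and 12600 bp in the mm9 pooled list, the widest of the 20 in those 2 lists. The narrowest were Ago4 (1733 bp) and Adar, an RNA-editing enzyme (1922 bp). The Argonaute gene Ago3 and the exonuclease gene Dis3l2, whose product degrades uridylated let-7 precursors, had no peak within 1 kb of the 5′ end. Their nearest peaks began 1193 bp and 1181 bp inside the gene, with signals of 66.4 and 53.3, and both genes were marked in mm9 and with a window of 2 kb. In the mm9 pooled list 18 of 20 were marked as well. For the others, Tnrc6b and Ran, an absent region and an unmatched gene were not told apart here.

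The TRIM-NHL relatives of Trim71 had no such domain. Trim3 had 1978 bp with a signal of 52.5 and Trim32 had 1375 bp with 34.7. Trim2 had no peak within 1 kb, its nearest peak beginning 2646 bp inside the gene with a signal of 13.8, and was marked in mm9. Of 8 let-7 target genes all were marked, against 66.6% of all genes. The widest were Igf2bp3 (8041 bp, with 12311 and 7942 bp in the replicates), Mycn (7938 bp) and Igf2bp1 (7233 bp), and the narrowest was Nras (1950 bp). The median of these 8 was 4759.5 bp. Trim71, itself a let-7 target, was thus wider than each of them in both replicates.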

How the data were processed

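H3K4me3 ChIP-seq of 2 biological replicates of E14TG2a.4 was used as peak lists. Per the deposited file descriptions, the authors made each mm10 replicate list from that replicate's alignments with 1 control file. For the aligner, the peak caller and the thresholds, nothing is given in the sources used here. The deposited lists give a signal value for each peak, whose scale is not stated. The deposited mm10 lists give the −log10 of a q-value and the deposited mm9 lists a q-value itself. Depth is unknown, so no interval for counting error could be given.

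Gene positions were those of RefSeq on GRCm38.p6, with strand from the RefSeq promoter table for 17492 genes and from GENCODE vM1 for 4044. Another 351 were left out. In mm9 every protein-coding vM1 start was used, and no coordinate was moved between builds. Peaks within 1 kb of a 5′ end called a promoter marked, and peaks less than 1 kb apart were joined. Motifs were searched on both strands. The steps were run with Python 3.11.15, numpy 2.4.6 and pandas 2.3.3, and figures drawn with matplotlib 3.10.9. The joining and overlap code was tested on simulated peaks.

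With 1 group no test was made. The 6 genes and all lists were chosen with earlier results of these data known. Named from each list were the 3 widest marked genes, the 2 narrowest, each gene without a promoter peak, all 3 TRIM-NHL relatives and, for each of the 6 genes, the 2 most alike. One gene that this rule takes is not reported here. Alternatives covered the list, the threshold, the window, the joining distance and the build.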

Additional observations from a re-analysis of the deposited data

How the results depend on the processing

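All 6 genes were marked under each alternative run: a q-value under 1e-05, either replicate's list or the pooled one, promoter windows of 500 bp or 2 kb, peaks with a partner in both replicates and mm9. The pathway list had 18 marked genes under each, except 20 with the window of 2 kb. The cause of the following changes was not tested beyond the joining described for Trim71.

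The median domain width of the 6 genes, 4256 bp, was 4187.5 to 4780.5 bp with either replicate left out, 4866 bp in the pooled list, 3438.5 bp without joining, 7000 bp in the mm9 pooled list and 5700 bp in mm9 replicate 1. Trim71, 40886 bp, was 22143 to 22302 bp with either replicate left out, 58073 bp pooled, 22314 bp with a q-value under 1e-05 or with partners in both replicates, 19997 bp without joining, 52733 bp with joining under 3 kb, and 60600, 42000 and 43800 bp in the mm9 lists. The median signal, 55.9, was 42.4 to 50.02 with either replicate left out and 42.1 when weighted by peak width. The 27 gene-body peaks became 41 to 42 with either replicate left out and 44 in the pooled list, alternatives chosen after seeing the data. Beside the Trim71 width, whose 10 alternatives all moved, 38 of 86 values for single genes moved by more than the spread between replicates, or by more than 5% where no spread was available.

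No paired analysis was possible because the samples form 1 group. Peaks below a list's threshold are not recorded, and on mm10 only gene 5′ ends and RefSeq starts were examined. With 2 replicates an SD is itself uncertain.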

Other observations

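The hairpins of let-7, whose maturation the Lin28 proteins block, and of the miR-290 cluster, the main microRNA cluster of mouse ES cells, were set against the same peaks. This list was chosen after seeing the data. The mature sequences, from RefSeq on GRCm38.p6, have the seed (bases 2 to 8) in capitals, and those of let-7 share 1 seed while miR-294-3p and miR-295-3p share another.
let-7i-5p: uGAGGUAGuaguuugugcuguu
let-7e-5p: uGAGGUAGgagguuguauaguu
let-7g-5p: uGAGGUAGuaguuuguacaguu
let-7b-5p: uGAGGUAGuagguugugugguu
miR-294-3p: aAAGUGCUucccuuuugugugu
miR-295-3p: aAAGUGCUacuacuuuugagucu

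Of 1005 annotated hairpins, 25.1% overlapped a peak of the replicated list. The 8 hairpins examined from the miR-290 cluster on chromosome 7 all lay in 1 peak. Its signal was 50.4 in the replicated list, 61.2 in replicate 1 and 44.1 in replicate 2. Since they share that peak they count as 1 place. Of 11 let-7 hairpins 3 lay inside a peak. Mirlet7i had a signal of 53.8 (47.7 and 47.9 in the replicates), Mirlet7e 39.8 (38.2 and 31.9) and Mirlet7g 5.61 (4.33 and 5.90). The same 3 were inside a peak in both replicates. Of the other 8, the nearest to a peak was Mirlet7a-1 at 2.41 kb and the farthest Mirlet7f-2 at 89.0 kb. Mirlet7b, whose seed is the same, was 4.23 kb from a peak. The measure is of the hairpin itself, and the starts of the primary transcripts were not analysed here.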
